A study of Mus musculus with 18 samples.

Results

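The regional difference without disease was read from 5 of the 18 arrays of the series: 3 from the oculomotor nucleus and 2 from the cervical spinal cord of control mice 10 weeks old. The arrays were chosen by their titles. The array of control spinal cord replicate 1 is not used, as its values followed none of the others (correlation of 0.0104 to 0.0143 with each of the 17 arrays used). The comparison covers all 22626 probe sets that are not array controls, of which 13575 were bright enough to be tested, for 8072 named genes. A probe set is a group of short probes on the array that together report a transcript, and its signal is a brightness on a linear scale.

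The series compares a motor region that amyotrophic lateral sclerosis (ALS) spares with a motor region that it affects, in mutant mice of 6 and 10 weeks and in controls of 10 weeks, with 3 arrays in each of 6 groups. The control mice carry no genotype label beyond "control", and the words "ALS model" stand beside mutant and control samples alike. Strain, sex, the mutation and the number of animals behind a sample are not given in the sources used here, so p-values measure the spread between these samples. Oculomotor replicates 1 to 3 are compared with spinal cord replicates 2 and 3 throughout.

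The oculomotor nucleus is a small midbrain nucleus of cholinergic motor neurons that move the eye and lift the lid. It lies beneath the cerebral aqueduct, close to the serotonin neurons of the dorsal raphe and to the dopamine neurons of the ventral midbrain. The cervical cord holds the motor neurons of the forelimb, the interneurons of the dorsal and ventral horns, long myelinated tracts and a meningeal sheath, and its cells keep the Hox code that sets position along the body axis behind the midbrain.

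Within control oculomotor nucleus the arrays correlated at 0.982 to 0.985, within control spinal cord at 0.983, and between the regions at 0.966 to 0.973 over all 22626 probe sets. Median signals of the 5 arrays lay between 215 and 223. A log2 difference here is oculomotor nucleus minus spinal cord on the scale log2(signal + 25), with the standard error of the limma fit, for 3 against 2 arrays. A gene or probe set is called at a Benjamini-Hochberg adjusted p under 0.05.

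The regions differed in 1841 probe sets, 899 higher in the oculomotor nucleus (6.62% of those tested) and 942 lower (6.94%). Counted with 1 probe set per gene, the brightest, 558 of 8072 genes were higher (6.91%) and 652 lower (8.08%), and the median difference over all genes was -0.0017. A change of at least 2-fold was called for 269 probe sets, 121 higher and 148 lower. The arrays of the regions did not overlap in any of these 269, which were chosen by size and p on the same arrays. Of all 8072 genes, 1861 had the oculomotor arrays above and 1922 the cord arrays above. At 4-fold or more, 13 probe sets were called higher and 25 lower. The genes at the top were markers of monoamine neurons and midbrain position on the higher side, and Hox genes, glial and meningeal genes on the lower side. Spinal cord replicate 2 weighed most on the count: without it 876 probe sets were called, 400 higher and 476 lower.

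**Figure D1:**
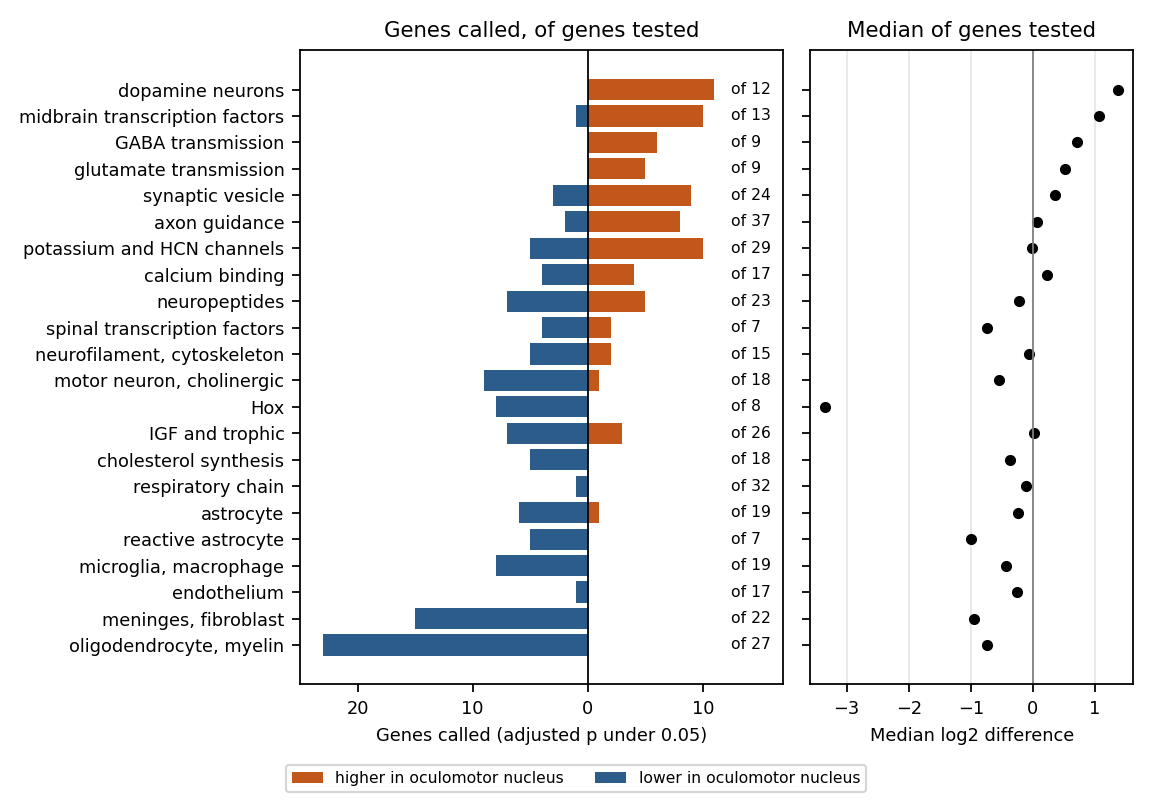
Genes called in 22 gene lists (left; bars to the right are higher and bars to the left lower in the oculomotor nucleus, with the number of genes tested) and the median log2 difference of the genes tested (right). The 27 myelin genes, all of those on the array, lie at -0.74, while potassium channel genes went both ways around -0.0064.

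Monoamine neuron genes were among the largest differences in favour of the oculomotor nucleus, with the hormone gene Gh, Tcf7l2 and Cartpt, which are described further on. Slc6a4, the serotonin transporter, had signals of 1391, 1161 and 1198 in the oculomotor nucleus against 6.7 and 7.2 in spinal cord. All 3 oculomotor arrays were bright and both cord arrays lay below the offset of 25, so the size of the difference has no firm value: it was 5.31 ± 0.19 (adjusted p = 3.16e-12) and 3.65 with an offset of 100. Th, tyrosine hydroxylase, the rate-limiting enzyme of dopamine synthesis, had signals of 1256, 1243 and 1247 against 171 and 166. The 3 oculomotor values differed by little and stood 6.58-fold above the cord (log2 difference 2.72 ± 0.14, adjusted p = 3.37e-10).

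Slc6a3, the dopamine transporter, read 1339, 1336 and 1520 against 108 and 102, a log2 difference of 3.45 ± 0.19 (adjusted p = 6.47e-10). Ddc, the decarboxylase shared by dopamine and serotonin synthesis, read 3102, 2842 and 3054 against 327 and 475 (2.85 ± 0.17, adjusted p = 1.94e-09). Gch1, which makes the cofactor that both synthetic pathways need, read 277, 318 and 303 against 72.0 and 48.6 (1.94 ± 0.18, and 1.32 with an offset of 100). Nr4a2, a nuclear receptor required for dopamine neurons to form, read 506, 395 and 421 against 106 and 88.3 (1.93 ± 0.20, adjusted p = 2.41e-06). In each of these genes the lowest oculomotor array was above the highest cord array, as it was in 1861 of all 8072 genes. Of the 20 dopamine neuron genes in the list, 18 were on the array and 12 were tested, of which 11 were higher and 0 lower, against 6.91% of all genes higher. For 7 of the 12 the cord mean lay under the brightness limit, so they passed the filter through the oculomotor arrays, and the count describes the tested genes without supporting a direction. The remaining gene, Aldh1a1, had a difference of -0.21 ± 0.13. In the serotonin list 2 of the 5 genes tested were higher, Slc6a4 and the autoreceptor Htr1a (0.71 ± 0.12). For 1 of the 5, Slc6a4, the cord mean lay under the brightness limit, so it passed the filter through the oculomotor arrays.

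In tissue pieces such as these, fewer cells of a type and less RNA per cell cannot be told apart. The only tested gene of the noradrenaline list was not called.

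The stretch upstream of 5 of the genes described here is shown because they lie at the ends of the regional difference: 3 dopamine genes, the peptide gene Cartpt and the Hox gene Hoxd8. Each run is the 250 bases before the annotated transcription start, read 5′ to 3′ on the gene's own strand, from RefSeq with build GRCm38.p6. Capitals mark a match to TGACGTCA, the cAMP response element, or to AAAGGTCA, the site bound by Nr4a2 and its relatives, searched on both strands. The Th run lies at chr7:142899996-142900245 (minus strand), Ddc at chr11:11898145-11898394 (minus), Slc6a3 at chr13:73536497-73536746 (plus), Cartpt at chr13:99900684-99900933 (minus) and Hoxd8 at chr2:74704365-74704614 (plus).
Th: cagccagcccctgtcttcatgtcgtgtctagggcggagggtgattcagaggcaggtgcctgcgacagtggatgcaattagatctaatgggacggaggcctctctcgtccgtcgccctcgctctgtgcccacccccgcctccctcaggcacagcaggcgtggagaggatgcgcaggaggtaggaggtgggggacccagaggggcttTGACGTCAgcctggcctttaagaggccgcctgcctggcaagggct
Ddc: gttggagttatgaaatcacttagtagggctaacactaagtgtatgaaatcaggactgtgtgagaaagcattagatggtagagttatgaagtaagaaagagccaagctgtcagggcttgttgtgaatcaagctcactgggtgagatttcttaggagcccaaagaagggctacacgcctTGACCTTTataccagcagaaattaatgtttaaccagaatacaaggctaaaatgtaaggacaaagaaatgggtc
Slc6a3: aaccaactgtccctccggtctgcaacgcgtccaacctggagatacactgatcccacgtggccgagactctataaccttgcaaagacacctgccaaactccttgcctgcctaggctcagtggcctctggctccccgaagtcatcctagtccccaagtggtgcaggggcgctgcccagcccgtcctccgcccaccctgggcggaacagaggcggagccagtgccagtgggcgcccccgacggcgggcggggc
Cartpt: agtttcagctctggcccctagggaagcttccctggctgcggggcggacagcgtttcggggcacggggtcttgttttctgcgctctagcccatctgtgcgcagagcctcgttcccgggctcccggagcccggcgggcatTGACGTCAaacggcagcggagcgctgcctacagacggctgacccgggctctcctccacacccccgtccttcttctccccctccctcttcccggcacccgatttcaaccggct
Hoxd8: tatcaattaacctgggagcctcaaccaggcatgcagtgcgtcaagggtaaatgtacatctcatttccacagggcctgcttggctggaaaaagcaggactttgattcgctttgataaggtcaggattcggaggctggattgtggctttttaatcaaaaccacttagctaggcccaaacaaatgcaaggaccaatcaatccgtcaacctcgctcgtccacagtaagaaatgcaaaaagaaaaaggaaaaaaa
The Th match starts at position -45 and the Cartpt match at -112 from the start site, and both are cAMP response elements, which read the same on either strand. The Ddc match, at -73, is AAAGGTCA on the opposite strand, and the table's second Ddc window held no match. Slc6a3 and Hoxd8 held neither in these windows. Over all 32851 windows of the RefSeq table, 1.55% held the cAMP response element and 1.34% the Nr4a2 letters. Of 21 windows of the dopamine list, 1 held each, and of 24 Hox windows, 0 held either. A match describes letters only and shows no binding.

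**Figure D2:**
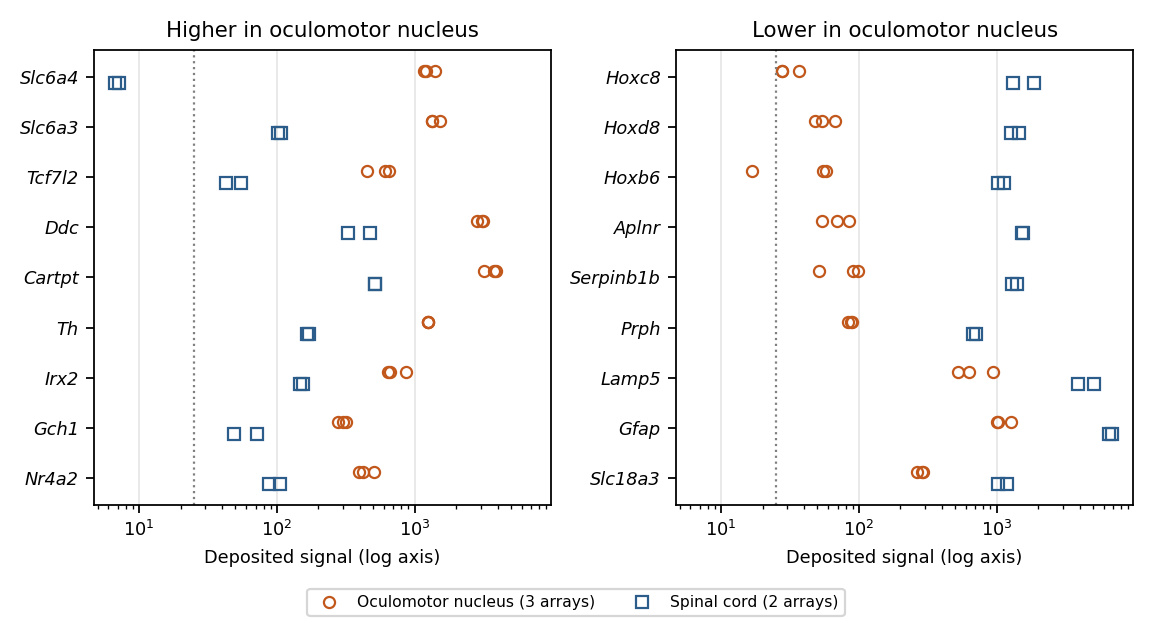
Deposited signal (log axis) of 9 genes higher and 9 genes lower in the oculomotor nucleus, with circles for its 3 arrays and squares for the 2 spinal cord arrays; the dotted line is the offset of 25. The regions overlap in none of the 18 genes, most of which were named by a rule that required separated arrays. Slc6a4 is the only gene whose cord signals (6.7 and 7.2) lie below the offset.

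Neuropeptide genes moved both ways. Cartpt, which encodes the CART peptide of the Edinger-Westphal region beside the oculomotor nucleus, read 3164, 3901 and 3729 against 511 and 512, 6.73-fold higher (2.75 ± 0.17, adjusted p = 2.73e-09). Scg2, a secretory granule protein, read 6027, 6220 and 6212 against 3551 and 3669 (0.77 ± 0.09). On the lower side stood Calcb, the beta form of calcitonin gene-related peptide, at 115, 108 and 119 against 369 and 500 (-1.71 ± 0.19). Nts, neurotensin, also fell (-0.95 ± 0.15), as did Tac2, the neurokinin B precursor of the dorsal horn (-1.82 ± 0.37), whose oculomotor replicate 3 (183) was lower than the others (534 and 472). Of 23 tested genes of the list, 5 were higher and 7 lower (6.91% and 8.08% of all genes), with a median of -0.22. The counts were 2 and 5 without oculomotor replicate 2, and 3 and 5 without either cord array. A cAMP response element was found in 6 of 32 windows of this list (18.75%), of the genes Cartpt, Scg2, Chgb, Sst, Pcsk1 and Ucn. Of the 5 tested, Cartpt, Scg2 and Chgb (0.35 ± 0.10) were higher and Sst was lower (-0.44 ± 0.12). Chgb was not called without oculomotor replicate 2 (adjusted p = 0.0691) or spinal cord replicate 3 (0.282), and Sst not without any 1 oculomotor array (0.0521 to 0.0619) or without spinal cord replicate 2 (0.291).

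Among peptide receptors, 3 of 16 tested genes were higher and 3 lower, beside 6.91% and 8.08% of all genes. For 2 of the 16 the oculomotor mean, and for 2 the cord mean, lay under the brightness limit, so the counts support no direction. Aplnr, the apelin receptor, read 54.0, 69.3 and 84.1 in the oculomotor nucleus against 1518 and 1552 in spinal cord (-4.06 ± 0.21, adjusted p = 3.00e-10, and -3.28 with an offset of 100). Ntsr1, a neurotensin receptor of dopamine neurons, was higher (1.35 ± 0.18), opposite to the peptide gene Nts.

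Hox genes marked the spinal cord. Hoxc8 read 27.6, 36.5 and 27.7 in the oculomotor nucleus and 1315 and 1848 in spinal cord, a log2 difference of -4.84 ± 0.29 (adjusted p = 1.94e-09). Hoxd8 read 48.3, 53.7 and 66.8 against 1276 and 1438 (-4.09 ± 0.18, adjusted p = 5.17e-11), and Hoxb6 read 55.1, 16.8 and 57.8 against 1020 and 1126 (-4.07 ± 0.24). Both cord arrays were high and all oculomotor arrays low in each. With an offset of 100 these differences were -3.67, -3.22 and -3.05, so their size has no firm value. The 8 tested Hox genes were all lower (8.08% of all genes were), but for 7 of them the oculomotor mean lay under the brightness limit: they passed the filter through the cord, and the count supports no direction. The smallest difference among them was that of Hoxb2 (-1.59 ± 0.19), whose expression begins in the hindbrain.

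The array carries 31 Hox genes, and 23 fell under the brightness filter because their mean over the 17 arrays was low. Hoxa7 read 5.80, 9.20 and 9.30 against 443 and 299, and Hoxb9 read 33.1, 8.30 and 8.20 against 389 and 497, yet neither was tested. With no filter, where 3.72% of 22626 probe sets were higher and 4.12% lower, 17 of the 31 were lower and 0 higher. By paralogue group, 15 of the 16 genes of groups 4 to 9 were lower, 1 of 6 in groups 1 to 3 and 1 of 9 in groups 10 to 13. The exception in the middle groups was Hoxb7, at 79.7, 69.3 and 97.3 against 85.8 and 93.9. Groups 10 to 13, which mark lumbar and more caudal levels, reached a mean of at most 115 in the cord (Hoxa10).

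**Figure D3:**
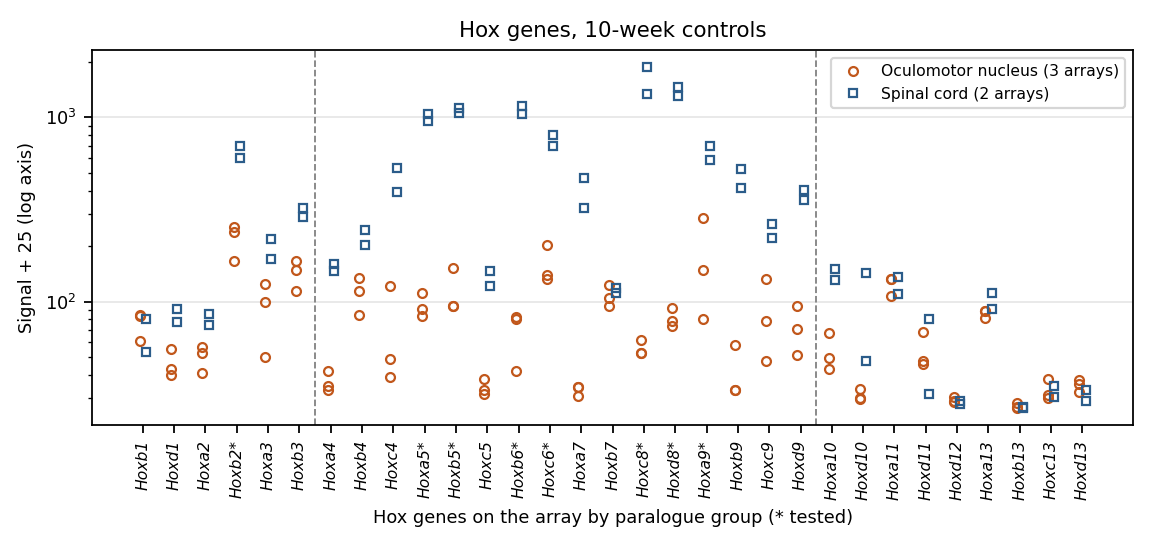
Signal + 25 (log axis) of the 31 Hox genes on the array, ordered by paralogue group, with dashed lines between groups 1 to 3, 4 to 9 and 10 to 13, circles for 3 oculomotor nucleus arrays and squares for 2 spinal cord arrays. The cord arrays stand above the oculomotor arrays in 23 genes, mostly those of groups 4 to 9, and most genes of groups 10 to 13 are dim in both regions. Of all 8072 genes tested, 1922 have the cord arrays above.

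The tested transcription factors of the midbrain list were mostly higher in the oculomotor nucleus. Tcf7l2, a Wnt effector strong in thalamus and midbrain, read 648, 610 and 454 against 42.9 and 55.3 (3.00 ± 0.20, adjusted p = 8.39e-09, and 2.16 with an offset of 100). Irx2, an Iroquois homeobox gene, read 660, 639 and 856 against 154 and 147 (2.07 ± 0.17). The dopamine neuron factors En2 (1.33 ± 0.22) and Foxa2 (1.21 ± 0.19) and the Iroquois gene Irx1 (1.08 ± 0.18) were higher too. Of 13 tested genes of the list, 10 were higher (6.91% of all genes were) and Nkx2-2 was lower (-0.44 ± 0.13), with a median of 1.07. For 4 of the 13 the cord mean lay under the brightness limit, so they passed the filter through the oculomotor arrays, and the count supports no direction. Nkx2-2 was not called without oculomotor replicate 3 (adjusted p = 0.0974) or without spinal cord replicate 2 (0.0612) or 3 (0.192). Of the 14 members on the array that the filter removed, 6 were called higher and 0 lower with no filter. In that fit 3.72% of all 22626 probe sets were higher and 4.12% lower. Among the 6 was Foxa1, at 203, 200.5 and 193 against 4.1 and 3.9. Gata3, a factor of serotonin and midbrain GABA neurons, read 195, 168 and 237 against 7.60 and 2.10, and Otx2, which sets midbrain identity, read 151, 139 and 168 against 2.60 and 4.50.

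Zic1 varied most between oculomotor arrays in this list, at 2455, 1761 and 1082 against 465 and 783. Its difference of 1.43 ± 0.34 (adjusted p = 0.00699) fell to 1.07 without spinal cord replicate 2 and was then not called (adjusted p = 0.155). Zic1 also belongs to the list of genes of the neighbouring cerebellum, of which 5 of 8 tested were higher and 0 lower (6.91% and 8.08% of all genes), and 3 without oculomotor replicate 1 or either cord array. The summed signal of that list was 9434, 8597 and 7473 in the oculomotor arrays against 6162 and 6312, and its part in the Zic1 difference was not tested. In the list of spinal interneuron factors, 4 of 7 tested genes were lower, led by Lbx1, a dorsal horn factor (-1.77 ± 0.17), and Ebf1 (-1.23 ± 0.15). For 3 of the 7 the oculomotor mean lay under the brightness limit, so they passed the filter through the cord, and the count supports no direction. The list did not move as a block: Nr2f2, at 501, 451 and 550 against 219 and 217 (1.11 ± 0.15), and Zfhx3 (1.19 ± 0.19) were higher.

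The cholinergic and motor neuron genes that differed were mostly lower in the oculomotor nucleus. Slc18a3, the vesicular acetylcholine transporter, read 264, 292 and 285 against 1022 and 1182 (-1.88 ± 0.14, adjusted p = 3.14e-08). Prph, the intermediate filament peripherin, read 87.7, 83.8 and 88.7 against 670.5 and 707 (-2.67 ± 0.22, and -2.08 with an offset of 100), but its other tested probe set, dim in both regions, gave -0.09 ± 0.17. Chodl, which marks fast motor neurons, read 67.0, 96.5 and 74.1 against 369 and 460 (-2.08 ± 0.22). Of 18 tested genes of the list 9 were lower and 1 higher (8.08% and 6.91% of all genes), with a median of -0.55. For 5 of the 18 the oculomotor mean lay under the brightness limit, so they passed the filter through the cord, and the count supports no direction. The factor that specifies motor neurons in both regions, Isl1, was dim throughout, at no more than 118 on any of the 5 arrays, and was not tested. Phox2a, which oculomotor neurons need to form, read 62.6, 48.1 and 53.1 against 41.3 and 46.1, so this defining gene of the labelled nucleus was dim on all 5 arrays and was not tested.

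Of the 3 neurofilament subunits, which fill large axons, Nefh was lower by the most, at 2404, 2479 and 2894 against 6481 and 6095 (-1.27 ± 0.11, adjusted p = 1.41e-07). Nefm (-0.93 ± 0.14) and Nefl (-0.69 ± 0.10) followed. Gap43, the growth cone protein, went the other way, at 3076, 3232 and 2980 against 1262 and 1204 (1.31 ± 0.09, adjusted p = 1.10e-08). Over the 15 cytoskeletal genes tested, 2 were higher and 5 lower, beside 6.91% and 8.08% of all genes.

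Among genes of inhibitory transmission, 6 for GABA were higher and 2 for glycine lower in the oculomotor nucleus. Gad2, a GABA synthesis enzyme, read 833, 1099 and 1215 against 357 and 350 (1.49 ± 0.17, adjusted p = 7.49e-06), and the receptor subunit Gabrb2 differed by 1.39 ± 0.21. The 6 were of 9 tested GABA genes, beside 6.91% of all genes higher, with 0 lower and a median of 0.71. Glra1, the adult glycine receptor subunit, read 94.6, 72.6 and 159 against 407 and 449 (-1.81 ± 0.27), and Slc6a9, the glial glycine transporter, was lower by less (-0.80 ± 0.12). Only 5 of the 8 glycine genes on the array were tested, of which these 2 were called (8.08% of all genes were lower). For 1 of the 5, Glra1, the oculomotor mean lay under the brightness limit, so it passed the filter through the cord. Of 9 tested glutamate genes 5 were higher, led by the AMPA receptor subunit Gria1 (1.16 ± 0.13), with 3 left without spinal cord replicate 2 and 2 without replicate 3. For 2 of the 9 the cord mean lay under the brightness limit, so they passed the filter through the oculomotor arrays.

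Syt1, the calcium sensor of fast release in forebrain and midbrain, read 3371, 3580 and 3314 against 993 and 1203 (1.62 ± 0.12, adjusted p = 2.21e-08). Vamp2 was higher (0.99 ± 0.12) while its paralogue Vamp1, the form of spinal and brainstem synapses, was lower, at 5450, 4932 and 6127 against 8518 and 8202 (-0.61 ± 0.09). Of 24 vesicle genes tested, 9 were higher and 3 lower, beside 6.91% and 8.08% of all genes. The sodium channel genes Scn3b (1.48 ± 0.12) and Scn2a (1.29 ± 0.15) were higher, as was the pacemaker channel gene Hcn3 (1.78 ± 0.22). The axonal potassium channel gene Kcna1 was lower, at 1341, 1594 and 1660 against 3648 and 3277 (-1.17 ± 0.15), together with its subunits Kcnab1 (-1.16 ± 0.11) and Kcnab2 (-0.72 ± 0.12). Of 29 potassium and HCN channel genes tested, 10 were higher and 5 lower, and 5 and 4 without either cord array. For 3 of the 29 the cord mean lay under the brightness limit. Among 37 axon guidance genes 8 were higher and 2 lower, and the 2 lower lie near the share of all genes (8.08%). For 2 of the 37 the cord mean lay under the brightness limit. Sema3e (1.72 ± 0.23) and its family member Sema3a (-1.33 ± 0.18) went opposite ways.

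Most myelin genes were lower in the oculomotor nucleus. Klk6, a protease of mature oligodendrocytes, read 753, 701 and 904 against 2613 and 2876 (-1.78 ± 0.12, adjusted p = 8.39e-09). Of 27 oligodendrocyte genes tested, 23 were lower and 0 higher (8.08% and 6.91% of all genes), with a median of -0.74. Mbp, myelin basic protein, gave a smaller change than the list, at 10210, 10658 and 10727 against 19699 and 12752 (-0.59 ± 0.15, adjusted p = 0.0127). The call of this probe set rested on spinal cord replicate 2, without which the difference was -0.28 and not called (adjusted p = 0.366). Of the 8 tested Mbp probe sets, 5 were called lower, and the differences of all 8 ran from -0.62 to -0.01. The myelin gene Mag (-0.93 ± 0.10) and the galactolipid enzyme gene Ugt8a (-0.94 ± 0.09) kept their call without spinal cord replicate 2.

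Gfap, the intermediate filament of astrocytes, was 6.02-fold lower, at 1004, 1025 and 1266 against 6856 and 6544 (-2.59 ± 0.21, adjusted p = 1.12e-07), and a second probe set gave -2.05 ± 0.23. Vim (-1.30 ± 0.16) and the small heat shock protein gene Hspb1 (-1.18 ± 0.19) fell with it, and 5 of the 7 tested genes of the reactive astrocyte list were lower (median -0.99), beside 8.08% of all genes. General astrocyte genes divided: of 19 tested, 6 were lower, among them Aqp4 (-0.84 ± 0.12), while the glutamate transporter gene Slc1a3 was higher (1.00 ± 0.20, and 1.86 ± 0.36 by another probe set). Microglial genes were lower in 8 of 19 (median -0.43), among them the receptor gene Csf1r (-0.65 ± 0.11). Leaving out any control array but oculomotor replicate 3 left 2 to 5 of the 8. For 3 of the 19 the oculomotor mean, and for 2 the cord mean, lay under the brightness limit.

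Of 22 tested genes of the meninges and connective tissue, 15 were lower and 0 higher (8.08% and 6.91% of all genes), with a median of -0.94. For 3 of the 22 the oculomotor mean lay under the brightness limit, so they passed the filter through the cord. Igfbp6 read 162, 156 and 155 against 699 and 692 (-1.98 ± 0.20, adjusted p = 1.32e-06). The collagen genes Col3a1 (-1.72 ± 0.19) and Col1a2 (-1.57 ± 0.18) and the proteoglycan gene Ogn (-1.71 ± 0.19) followed. Pmp22, a myelin gene of peripheral nerve that fibroblasts share, read 1096, 1199 and 1228 against 3608 and 4113 (-1.69 ± 0.17). Of vessel genes, 1 of 17 endothelial genes was lower, near the 8.08% of all genes, and 0 of 10 mural genes were called.

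Other genes among the 15 largest changes on each side have varied roles. On the lower side, Serpinb1b, a protease inhibitor, read 98.6, 91.3 and 51.0 against 1401 and 1287 (-3.73 ± 0.25, and -3.01 with an offset of 100). Lamp5, a synaptic membrane protein of inhibitory interneurons, read 520, 634 and 943 against 5103 and 3896 (-2.67 ± 0.22), and Lgals1, a galactoside-binding lectin of sensory and motor axons, differed by -2.20 ± 0.14. On the higher side stood St6galnac5, a sialyltransferase (2.13 ± 0.21), Slc7a3, a cationic amino acid transporter (2.03 ± 0.18), and Ahi1, a ciliary protein (1.82 ± 0.19).

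Cholesterol synthesis genes were lower in 5 of 18 and higher in 0, beside 8.08% and 6.91% of all genes, with a median of -0.37. They were led by Hmgcs1, at 4645, 4747 and 4483 against 7443 and 7208 (-0.66 ± 0.09), with 2 or 3 left without oculomotor replicate 1 or either cord array. Respiratory chain genes were called in 1 of 32 (median -0.12), and 0 of 10 immediate early genes were called, 1 without oculomotor replicate 2 or 3. Trophic factor genes went both ways, 3 higher and 7 lower of 26, beside 6.91% and 8.08% of all genes.

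Some genes of pituitary, choroid plexus and skeletal muscle differed widely between the control oculomotor arrays, and the source of their signal was not tested. Gh, growth hormone, read 428, 773 and 2934 against 15.5 and 15.5, and Prl, prolactin, read 73.7, 166.5 and 3008 against 47.8 and 32.2, so replicate 3 stood out among the controls in both hormones. Replicate 2 of the 10-week mutant oculomotor nucleus was bright in them too, at 13207 in Gh and 2209 in Prl. Gh was called (4.66 ± 1.32, adjusted p = 0.0238) in 1 of 3 tested probe sets, but not without oculomotor replicate 3 (adjusted p = 0.0872), without either cord array or with an offset of 100 (3.28, adjusted p = 0.0642). Ttr, the transthyretin of choroid plexus, read 5014, 1464.5 and 19.5 against 16.7 and 9.10, with replicate 1 the highest and replicate 2 between. Its 2 other probe sets had the same order, with replicate 3 above the cord, at 90.2 against 5.0 and 27.9 and at 57.0 against 1.7 and 10.3. On the mutant oculomotor arrays the 3 probe sets reached at most 28.6, 197 and 80.2. The filter, set on the mean of 17 arrays, left Ttr and Prl untested. Acta1, skeletal muscle actin, was brightest on oculomotor replicate 2, at 112.5, 670 and 66.8 against 254.5 and 124.

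**Figure D4:**
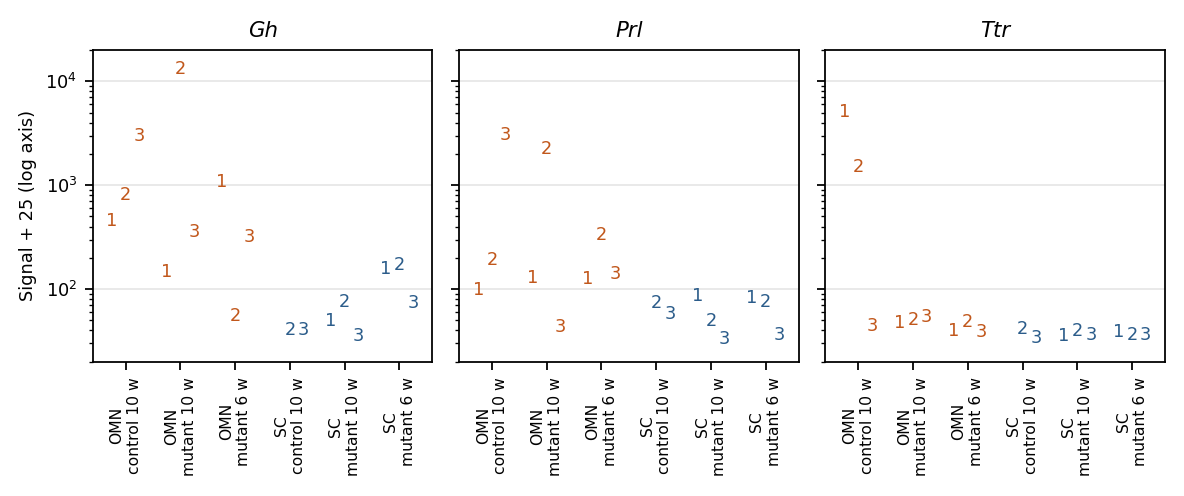
Signal + 25 (log axis) of the pituitary hormone genes Gh and Prl and of the choroid plexus gene Ttr on the 17 arrays used, each digit being an array's replicate number (OMN, oculomotor nucleus; SC, spinal cord; w, weeks). Among the control oculomotor arrays, replicate 3 is the highest in Gh and Prl, and replicates 1 and 2 are high in Ttr. Replicate 2 of the 10-week mutant oculomotor nucleus is high in Gh (13207) and Prl (2209) too.

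Summed over the list, pituitary genes ranged from 2407 to 8296 in the oculomotor arrays and from 1461 to 1652 in the cord, and choroid plexus and ependymal genes from 1250 to 8306 and from 814 to 860. Without oculomotor replicate 1, 1385 probe sets were called in all, and without replicate 3, 1665. Without replicate 3, 11 of 12 tested dopamine neuron genes were higher, and 8 of 8 Hox and 22 of 27 myelin genes were lower. In that fit 836 of all 13575 probe sets were higher and 829 lower. It used the same filtered probe sets, so the dopamine and Hox counts again support no direction. The part of pituitary, choroid plexus and ependymal tissue in other differences was not tested.

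The same regional contrast in mutant mice was read for the 269 probe sets called at 2-fold or more. It shares no array with the control contrast, but the mutant arrays entered the same fit, which took its spread and its brightness filter from all 17 arrays, so the comparison is not independent of the calls. All 269 had the same direction in 10-week mutants and in 6-week mutants. Among the 121 higher in controls the median difference was 1.27 in controls, 1.15 in 10-week mutants and 1.04 in 6-week mutants. For the 148 lower ones it was -1.26, -1.25 and -1.43. Sizes in mutants followed those in controls with r of 0.888 and 0.765 among the higher and 0.913 and 0.865 among the lower, at 10 and 6 weeks in turn; these correlations are across probe sets, which are not independent replicates. Slc6a4 differed by 5.99 and 4.73 in the mutants, Th by 2.53 and 3.05, Hoxc8 by -5.23 and -5.19 and Slc18a3 by -1.56 and -2.10, beside 5.31, 2.72, -4.84 and -1.88 in controls. Zic1 was at 0.27 and 0.10 against 1.43 in controls, and Nr4a2 at 1.00 and 1.47 against 1.93. Mag was at -0.77 and -0.26 and Mbp at -0.31 and 0.25, against -0.93 and -0.59.

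**Figure D5:**
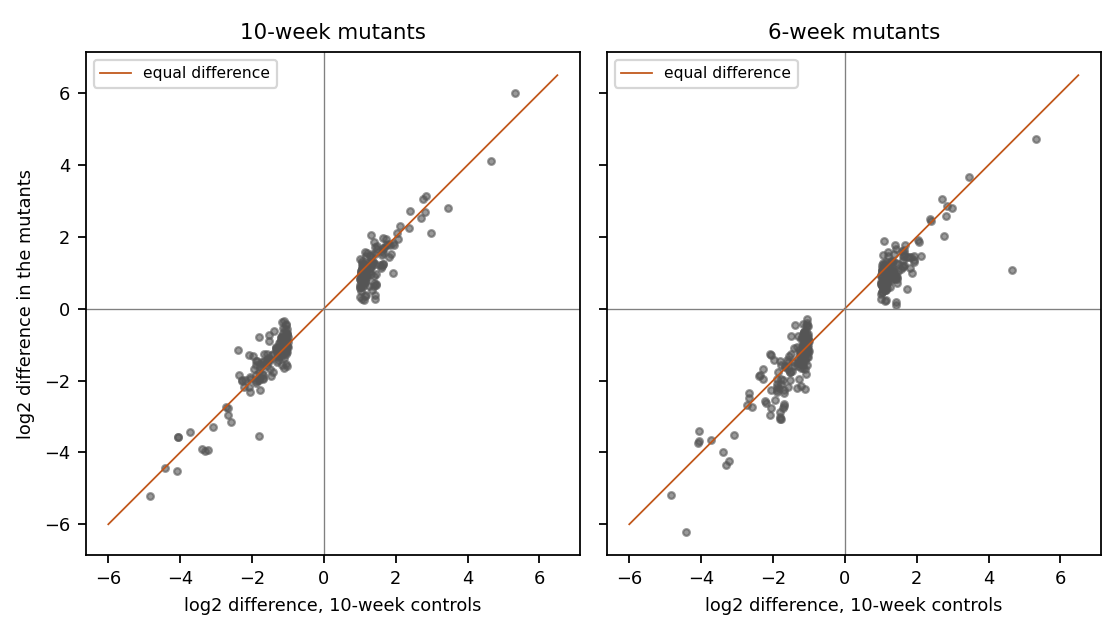
Log2 difference between oculomotor nucleus and spinal cord for the 269 probe sets called at 2-fold or more in 10-week controls (x axis), plotted against the same difference in 10-week mutants (left) and 6-week mutants (right); the line marks equal differences. No point changes sign, and median differences in the mutants are 1.15 and 1.04 on the higher side and -1.25 and -1.43 on the lower side.

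Whether the regional difference in controls departs from that in mutants was tested directly. Against 10-week mutants no probe set was called (0 of 13575, 0.0%) by limma, with 835 at an unadjusted p under 0.05, and no alternative fit called any. The 5 genes with the smallest p, given as values, had control minus mutant differences of -0.71 ± 0.13 (Atox1), 1.31 ± 0.25 (Spata5), 1.01 ± 0.21 (Proser1), -1.05 ± 0.23 (Mpv17) and 1.08 ± 0.24 (Tkfc), all with an adjusted p of 0.391 or more. Atox1, a copper chaperone, read 928, 926 and 1003 against 1703 and 1541 in controls (-0.75 ± 0.10) and differed by -0.04 in the mutants. A brighter tested probe set of Atox1 read 1802, 1611 and 1883 against 1767 and 2208 in controls. It was not called between the regions (-0.16 ± 0.12, adjusted p = 0.439).

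Against 6-week mutants, 8 probe sets were called (0.0589%), with 1647 at an unadjusted p under 0.05; age and genotype differ together there. Atp5a1, a subunit of ATP synthase, was not called between regions in controls (-0.06 ± 0.08) and differed by 0.63 in the mutants, a control minus mutant value of -0.69 ± 0.11. Kcnk2, a tandem-pore potassium channel, differed by 0.56 ± 0.11 in controls and by -0.29 in the mutants. This count was unstable: without 6-week mutant oculomotor nucleus replicate 1 it was 65, without control spinal cord replicate 3 it was 87, and without any other array of the 4 groups it was 0.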

How the data were processed

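Total RNA of microdissected tissue was measured on 1-colour mouse expression arrays, and the authors deposited MAS5 signals, an intensity on a linear scale, per the submitters' processing notes and the values. All 17 arrays used had a 2% trimmed mean of 500, so the authors had scaled them to a common level. A further array, control spinal cord replicate 1, was left out of the main analysis. Depth has no meaning for arrays, whose number limits the precision.

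From these values log2(signal + 25) was taken, and probe sets in the lowest 40% by mean over these 17 arrays were removed. A fit of 6 group means with limma 3.58.1 (R 4.3.3, eBayes with trend) gave the regional difference in controls and its difference from each mutant group, with Benjamini-Hochberg adjustment over 13575 probe sets. The script was tested on simulated data. Gene names came from the platform annotation, updated through gene IDs: 20380 probe sets have 1 symbol, 691 several and 1555 none. A gene in a list stands for its tested probe set with the highest mean. Same-numbered control arrays deviated together with r of 0.130 and 0.081. With only 2 cord arrays, the values of an oculomotor array with each mirror one another (0.130 and -0.130 for replicate 2). The check therefore cannot decide whether the numbers pair the samples, and the main fit used no pairing.

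The members and the 43 gene lists were chosen with earlier results of these data known. Named were the 15 largest changes in each direction with separated arrays, up to 5 genes of each list with the smallest p, the markers Slc6a4, Nr4a2, Hoxb6, Slc18a3 and Mbp, Gh and Prl, and, for the tests against mutants, the called genes or the 5 smallest p. Hoxa7, Hoxb9, Hoxb7, Hoxa10, Foxa1, Gata3, Otx2, Isl1, Phox2a, Ttr, Acta1 and some further list genes were named after their values were seen. Alternatives covered scaling, offset, filter, the excluded array, the replicate block and each array left out.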

Additional observations from a re-analysis of the deposited data

Results flagged for a closer look

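For 8 probe sets the regional difference in 10-week controls differed from that in 6-week mutants by limma's test of the difference itself, each with an adjusted p of 0.0493. The value is the control difference minus the mutant difference on the log2 scale. It was positive for Kcnk2 (0.85 ± 0.15) and for Sdc2, a cell surface proteoglycan (1.08 ± 0.19), which were at 0.56 and 0.65 in controls and at -0.29 and -0.43 in the mutants. It was negative for Atp5a1 (-0.69 ± 0.11), for Qdpr, which recycles the cofactor of tyrosine hydroxylase (-0.68 ± 0.12), and for the splicing factor gene Sfpq (-1.25 ± 0.22). Mrpl9, of the mitochondrial ribosome (-0.83 ± 0.15), Bola2 (-0.93 ± 0.17) and Dus1l (-1.15 ± 0.21) were negative too. In the 10-week mutants the control minus mutant value was 0.02 for Kcnk2 and -0.10 for Atp5a1, neither of them called. These are values of single probe sets, and other tested probe sets of the same genes were not called in this test. Those of Sdc2 gave -0.08 and 0.11, of Sfpq 0.73, -0.27 and -0.80, of Mrpl9 -0.0069 and of Dus1l 0.27. Those of Bola2 gave -0.10 to -0.45, of Atp5a1 -0.25 and of Qdpr -0.52.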

How the results depend on the processing

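The control count of 1841 probe sets stayed within 1.5 times under the changes of scaling, offset and filter, without the trend, with the arrays of the contrast alone and with the replicate block (1710), though whether the replicate numbers pair samples is not known. It was 314 with all 18 arrays, 277 under a rule of at least 2-fold with separated arrays and no p, and 269 with a 2-fold minimum added. Leaving out 1 control array gave 876 to 1665. The 8 probe sets called against 6-week mutants were 0 with quantile normalization, median centring, an offset of 100, values floored at 25, no filter, no trend, all 18 arrays or the arrays of the contrast alone, 23 with the replicate block, and 0 to 87 with 1 array left out; the cause was not tested. With the excluded array put back (all 18 arrays), the sign turned for Nr2f2 (-0.19), Nefh (0.59), Nts (0.15), Vamp1 (1.73), Kcnab2 (0.023), Nefl (1.41), Nefm (0.90), Ugt8a (0.48), Pmp22 (0.26), Aldh1a1 (1.17), Hmgcs1 (0.61), Mbp (1.14) and Sst (0.057), and, against mutants, for Atox1 (0.27), Atp5a1 (0.17) and Qdpr (0.21). With 2 cord arrays, genes dim in both regions have little power, and signals under the offset give no firm fold.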

Other observations

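The 3 control oculomotor arrays differed by a median of 0.24 on the log2 scale over all tested probe sets, and the 2 cord arrays by 0.16. Among tested probe sets with 1 gene symbol, a range of at least 4-fold between the oculomotor arrays was found in 10, of 6 genes. The untested Ttr, Prl and Acta1 are not in this count. Besides Gh they included Hspa1b, an inducible heat shock protein, at 872, 105 and 466 in the oculomotor nucleus and 165 and 751 in the cord, and Rian, a maternally expressed non-coding RNA, at 1433, 375 and 1700 against 1081 and 1293. Neither was called between the regions.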
